A study of Mus musculus with 8 samples.

Results

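The genes described here are 10 genes of the ubiquitin system with known roles in spermatids or other male germ cells: Ubb, Ube2b, Ube2j1, Klhl10, Cul3, Cul4a, Rnf8, Rnf133, Herc4 and Usp2. They were chosen by name, with earlier results of these data known. All 10 were found among the 17127 genes of the deposited table and entered the test over 17126 genes. The values come from RNA-seq of whole testes from adult mice aged 4 months, with 1 library per mouse. The control group was 4 wild-type mice (genotype WT, libraries 1 to 4), and the mutant group was 3 mice with the genotype Iqch-/- (libraries 1, 2 and 4). The mutants are homozygous for a short frameshift deletion made with CRISPR-Cas9 in a late exon of Iqch, which encodes an IQ motif protein of male germ cells. The edited founders came from zygotes of a C57BL/6 and CBA cross, the deletion is present in all cells of the animal and a truncated protein is predicted from it. Mutant library 3 is not analysed here. The comparison asks how the RNA of these genes differs between mutant and wild-type testes.

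Ubiquitin is a small protein that is joined to other proteins by a chain of enzymes. An activating enzyme (E1) loads it, a conjugating enzyme (E2) carries it, and a ligase (E3) picks the substrate, while deubiquitinases take it off again. Cullins are scaffolds of large ligases, and proteins with BTB and Kelch domains bring substrates to CUL3. In spermatids this system is used when histones are exchanged for protamines, when the acrosome and tail are built and when the cytoplasm is shed.

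Levels are in CPM, a gene's reads scaled to a library total of 1000000. The libraries held 32859673 to 37551057 reads in the wild type and 32064384 to 34806129 in the mutants, taking the smallest step between CPM values as 1 read, so 3 reads were worth at most 0.094 CPM. Iqch itself was at 193 to 217 CPM in the 4 wild-type libraries and at 64.8 to 69.2 CPM in the 3 mutant libraries. Fold changes are differences of log2(CPM + 0.1), mutant minus wild type, with limma's standard error (SE). A gene was called at a false discovery rate (FDR, Benjamini-Hochberg over all tested genes) below 0.01. A CPM value after ± is the SD of the group's libraries (n = 4 wild type, n = 3 mutant).

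Of the 10 genes, 5 were lower and 2 higher in mutant testes, and 3 were not called. Klhl10, Rnf133, Ube2j1, Usp2 and Ubb were lower, by 14.3% to 21.5% of their wild-type mean. Cul4a and Rnf8 were higher, by 21.8% and 28.2%, and Cul3, Ube2b and Herc4 were not called. Over all tested genes, 36.3% were called higher and 14.2% lower. In the 5 lower genes every mutant library was below every wild-type library, and in the 2 higher genes every mutant library was above them. Such separation was seen, above or below, in 42.8% and 19.5% of all tested genes. The median log2 fold change of the 10 genes was -0.14, beside 0.12 for all tested genes.

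**Figure D1:**
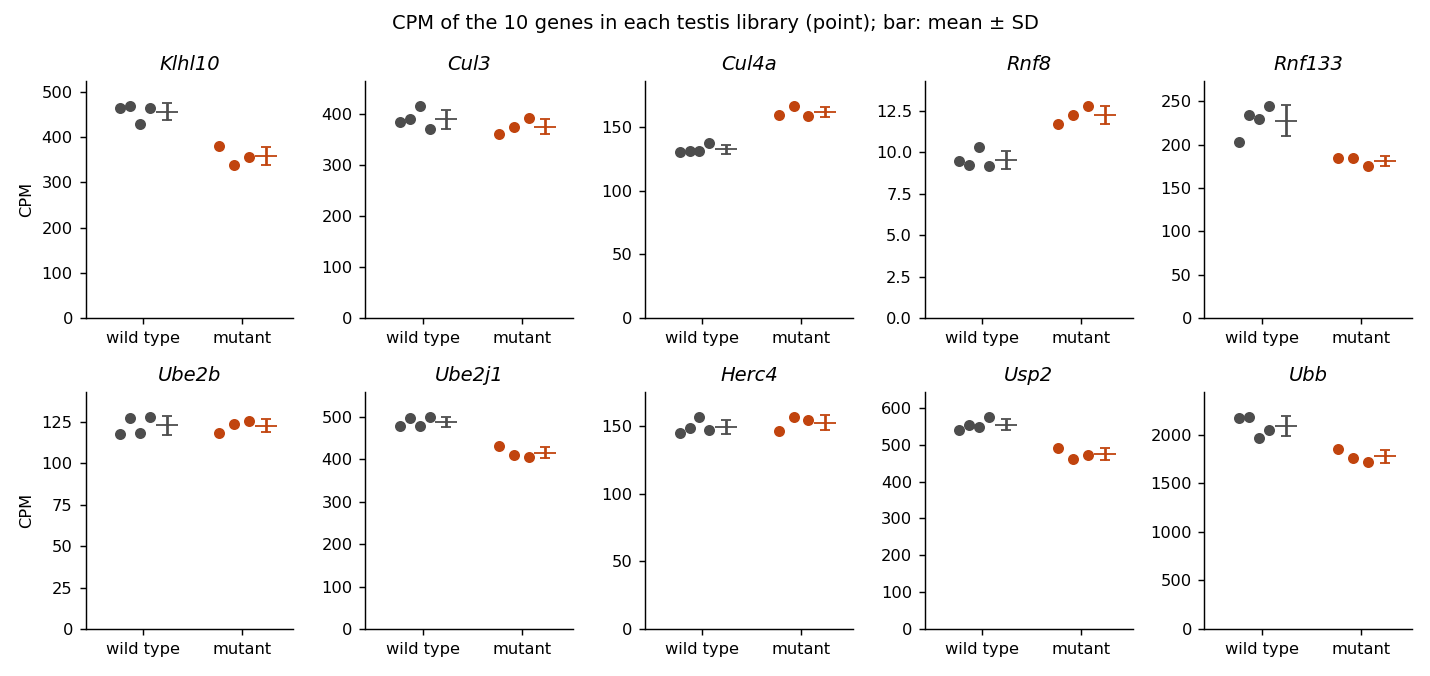
CPM (vertical axes, each from 0) of the 10 genes in the 4 wild-type (grey) and 3 mutant (orange) testis libraries, 1 point per library, with the mean ± SD beside them. The mutant points of Klhl10, Rnf133, Ube2j1, Usp2 and Ubb lie below all wild-type points, those of Cul4a and Rnf8 lie above them, and those of Cul3, Ube2b and Herc4 overlap them.

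CPM is a share of all RNA of a library, and the make-up of that RNA differed between the groups. The median gene was 0.12 higher in the mutants on the log2 scale, against a shift of -0.01 after division by median-of-ratios size factors, a second scaling. With that scaling, 27% of tested genes were called higher and 25.1% lower, and of the 10 genes 1 was higher and 6 were lower. Spermatid markers summed to 27011 to 28611 CPM in wild-type and 17644 to 20004 CPM in mutant libraries, 33.1% lower on average. Of these 15 markers, 13 were called lower and 2 were not called. Markers of Sertoli cells (6 of 6 tested), Leydig cells (5 of 6) and macrophages (6 of 6) were called higher, and the Leydig sum was 3.97-fold higher. On deposited CPM, 1 of 8 spermatocyte markers was higher, 1 lower and 6 not called, and 4 of 7 spermatogonium markers were higher. With size factors, 0 of the 8 spermatocyte markers were higher and 4 lower. Of the spermatogonium markers 1 of 7 was then higher, and of the Sertoli markers 5 of 6. Of the peritubular myoid markers 0 of 3 were called, and of the endothelial markers 2 of 4 were higher. No marker was at 0 CPM. In whole testis, fewer spermatids and less RNA per spermatid cannot be told apart, and the part that cell make-up has in these results was not tested.

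Ubb, on chromosome 11 of GRCm39 (62441951 to 62445102, plus strand), encodes a chain of ubiquitin repeats and is a main source of ubiquitin in germ cells. It was the most abundant of the 10 genes. The wild-type libraries held 2179, 2184, 1972 and 2049 CPM, and the mutant libraries 1853, 1764 and 1726 CPM. Each mutant library was lower than the lowest wild-type library. The mean was 2096 ± 103 CPM in the wild type and 1781 ± 65.3 CPM in the mutants, and the log2 fold change was -0.23 (SE 0.045, limma FDR 0.00059). Its transcript is repetitive and has copies elsewhere: 40.0% of the 100-base windows of its canonical transcript also occur in transcripts of other genes, among them the pseudogene Ubb-ps, listed at 259 to 327 CPM, so the division of reads between them is uncertain.

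Ube2b, on chromosome 11 (51873788 to 51895244, minus strand), is an E2 related to yeast Rad6 and is needed for male fertility in mice. Its wild-type libraries were at 118, 128, 118 and 128 CPM and its mutant libraries at 118, 124 and 126 CPM. The groups overlapped fully, at means of 122.9 ± 5.54 and 122.7 ± 3.81 CPM. The log2 fold change was -0.0021 (SE 0.047, limma FDR 0.97). Ube2b was at -0.14 with size factors (limma FDR 0.019), also not called. It shares 203 exon bases with Cdkl3 on the opposite strand, which was at 343 to 367 CPM in the wild type and 311 to 316 CPM in the mutants. Its X-linked paralog Ube2a, a near relative with the same activity, was at 11.7 to 12.7 CPM in the wild type and 14.3 to 16.2 CPM in the mutants. Ube2a shares 738 exon bases (14.2%) with Nkrf on the opposite strand, whose reads there could not be told apart. Ube2a was called higher on deposited CPM, with a log2 fold change of 0.31 (SE 0.077, limma FDR 0.0034), but not with size factors, at 0.18 (limma FDR 0.060).

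Ube2j1, on chromosome 4 (33031369 to 33052363, plus strand), is an E2 anchored in the membrane of the endoplasmic reticulum, where it serves the disposal of misfolded proteins. It was at 479, 497, 479 and 499.6 CPM in the wild type and at 430, 411 and 405 CPM in the mutants. No mutant value reached the wild-type range. The log2 fold change was -0.23 (SE 0.038, limma FDR 0.00017). Ube2j2, the other E2 of this kind, was at 41.9 to 44.2 CPM in the wild type and 42.7 to 47.2 CPM in the mutants and was not called (0.07, SE 0.053, limma FDR 0.29). The sequence before the start of Ube2j1 is given because it holds the most searched motifs of any of the 10 genes, 7 in the 250 bases before the RefSeq start (from RefSeq's GRCm38.p6 table, found once in GRCm39). It is shown from 33031130 to 33031368 of chromosome 4 on the plus strand, without the last 11 bases, which GENCODE places in the first exon. The last of the 7 motifs, a TGACG on the opposite strand 6 bases before the RefSeq start, lies in those 11 bases and is not shown. Capitals mark GGGCGG (a GC box) and TGACG (the core of a CRE site) on either strand, and adjacent GC boxes overlap.
Ube2j1: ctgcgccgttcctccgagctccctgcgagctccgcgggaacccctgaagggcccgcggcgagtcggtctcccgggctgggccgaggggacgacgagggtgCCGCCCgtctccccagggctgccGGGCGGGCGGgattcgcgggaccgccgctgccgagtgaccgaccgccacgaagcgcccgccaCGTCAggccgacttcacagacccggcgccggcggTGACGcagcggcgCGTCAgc
GGGCGG occurs in 32.7% of all 32851 promoter windows of that length and TGACG in 17.8%.

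Klhl10, on chromosome 11 (100331933 to 100347851, plus strand), is the spermatid BTB-Kelch adaptor of CUL3, and a single disrupted copy is known to make male mice infertile. The wild-type libraries were at 465, 467, 428 and 464 CPM and the mutant libraries at 379, 338 and 356 CPM. Wild-type library 3 was the lowest of its group and still above every mutant library. The mean fell from 456 ± 18.8 to 358 ± 20.7 CPM, which was 21.5% lower. The log2 fold change of -0.35 (SE 0.048, limma FDR 3.9e-05) was the lowest of the 10, and 8.97% of tested genes had a smaller one. Reads of Nt5c3b, which shares 76 exon bases with Klhl10 on the opposite strand, could not be told apart there, since the strand setting of the counting is not stated. Nt5c3b was at 81.2 to 87.7 CPM in the wild type and at 90.9 to 99.6 CPM in the mutants, opposite in direction to Klhl10.

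Cul3, on chromosome 1 (80242639 to 80318537, minus strand), is the scaffold that KLHL10 binds. It was at 384, 391, 416 and 372 CPM in the wild type and at 361, 375 and 392 CPM in the mutants. Both groups covered much the same range, and the log2 fold change was -0.05 (SE 0.046, limma FDR 0.32). With size factors it was called lower, at -0.19 (limma FDR 0.0033).

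Cul4a, on chromosome 8 (13155619 to 13197950, plus strand), is the scaffold of the ligases that use DDB1 and is needed for meiosis in male mice. The wild-type libraries were at 129.8, 131, 131 and 138 CPM, and the mutant libraries at 159, 166 and 159 CPM. All mutant libraries were higher, at a mean of 161 ± 4.02 beside 132 ± 3.54 CPM. The log2 fold change was 0.28 (SE 0.041, limma FDR 6.1e-05), and it was also called with size factors, at 0.15 (limma FDR 0.0069). Its X-linked paralog Cul4b moved in the same direction, from 74.3 to 81.5 CPM in the wild type to 91.5 to 100.9 CPM in the mutants (0.31, SE 0.051, limma FDR 0.00016).

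Rnf8, on chromosome 17 (29833537 to 29863965, plus strand), is a RING ligase that ubiquitinates histones at DNA breaks and on the sex chromosomes of spermatocytes. It was the least abundant of the 10 genes, at 9.48, 9.26, 10.3 and 9.16 CPM in the wild type and 11.7, 12.3 and 12.8 CPM in the mutants. The mutant values were all above the wild-type values. The log2 fold change was 0.36 (SE 0.082, limma FDR 0.0022), the highest of the 10, and 68.2% of tested genes had a smaller one. The call was lost with size factors (0.22, limma FDR 0.028) and without mutant library 4 (0.33, limma FDR 0.013). Of its canonical transcript, 28.1% of windows also occur in Gm28043 or the antisense RNA 2010106G04Rik. The ligase that acts after it on the same histones, Rnf168, was at 42.5 to 46.0 CPM in the wild type and 45.0 to 49.0 CPM in the mutants and was not called (0.08, SE 0.053, limma FDR 0.23). The 3 genes whose 7 library values, each relative to its own wild-type mean, lay nearest to those of Rnf8 were Rnf31, Ugp2 and Qtrt2, at root mean square differences of 0.026, 0.029 and 0.033 on the log2 scale. This was not a rare pattern, since 1134 genes lay within 0.1.

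Rnf133, on chromosome 6 (23648868 to 23650304, minus strand), is a testis-specific RING ligase of the endoplasmic reticulum and works with UBE2J1. The wild-type libraries were at 203, 234, 230.2 and 244 CPM, and the mutant libraries at 185, 185 and 175 CPM. Wild-type library 1 was nearest to the mutants, and the groups did not overlap. The mean fell from 228 ± 17.7 to 182 ± 5.73 CPM, with a log2 fold change of -0.32 (SE 0.058, limma FDR 0.00034). Its neighbour and paralog Rnf148, also a testis gene, lies less than 4 kb away on the same strand (23653897 to 23655135) and fell further, from 66.8, 75.1, 68.9 and 81.1 CPM to 47.98, 47.9 and 47.8 CPM. For Rnf148 the log2 fold change was -0.60 (SE 0.064, limma FDR 4.6e-06). The window before the start of Rnf133 is shown because it has the lowest share of G and C among the 10 genes, 36.8% beside a median of 52.4% over all promoter windows. It covers 23650305 to 23650554 of chromosome 6 on the minus strand, with capitals at a TATAAA (on the opposite strand) and an ATTGG (the reverse complement of CCAAT).
Rnf133: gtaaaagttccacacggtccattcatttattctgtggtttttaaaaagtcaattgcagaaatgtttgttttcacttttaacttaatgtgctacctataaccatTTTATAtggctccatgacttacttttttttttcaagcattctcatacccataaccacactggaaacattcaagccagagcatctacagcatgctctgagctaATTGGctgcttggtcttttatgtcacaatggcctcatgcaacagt
TATAAA occurs in 12.4% of all windows and ATTGG in 33.8%, and Rnf133 was the only 1 of the 10 genes with TATAAA.

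Herc4, on chromosome 10 (63079540 to 63155287, plus strand), is a HECT ligase whose loss in mice leaves sperm with a retained cytoplasmic droplet. Its values were 145, 149, 157 and 147 CPM in the wild type and 146, 157 and 155 CPM in the mutants. The ranges were almost the same, and the log2 fold change was 0.03 (SE 0.044, limma FDR 0.57). It was -0.10 (limma FDR 0.047) with size factors, so its sign depends on the scaling. It shares 707 exon bases with Sirt1 on the opposite strand, listed at 33.6 to 42.0 CPM. Of the other HERC genes tested, Herc1, Herc2, Herc3 and Herc6, 0 of 4 were called.

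Usp2, on chromosome 9 (43978264 to 44006924, plus strand), is a deubiquitinase with forms made in spermatids, and males without it are subfertile. The wild-type libraries held 540, 554, 549 and 575 CPM and the mutant libraries 492, 461 and 474 CPM. All mutant values were below the wild-type range. The log2 fold change was -0.22 (SE 0.039, limma FDR 0.00029). Usp21, a related deubiquitinase, was at 31.8 to 33.3 CPM in the wild type and 33.9 to 35.3 CPM in the mutants and was not called (0.08, SE 0.052, limma FDR 0.19). The RefSeq start of Usp2 lies inside the GENCODE gene, and the window before it is shown as a contrast to that of Rnf133: it runs from 43995967 to 43996216 on the plus strand, is 71.6% G and C and holds 3 GC boxes, in capitals.
Usp2: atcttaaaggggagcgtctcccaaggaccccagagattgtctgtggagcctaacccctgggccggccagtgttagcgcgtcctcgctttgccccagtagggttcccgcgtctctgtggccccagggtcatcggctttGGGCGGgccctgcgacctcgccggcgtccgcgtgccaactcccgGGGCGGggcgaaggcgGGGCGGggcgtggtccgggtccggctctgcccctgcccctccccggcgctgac
GGGCGG was found in 8 of the 12 windows of the 10 genes, beside 32.7% of all windows. Every gene but Klhl10 and Rnf133 had it. The full CRE site TGACGTCA, a site of spermatid CREM, was in 0 of the 12, beside 1.55% of all windows. These are matches of letters only. Of the 12 windows, 10 hold exon bases of protein-coding genes, so much of what was searched is not upstream sequence alone. The window of Klhl10 held no searched motif, but it starts at 100332500, inside the GENCODE gene. Of its 250 bases, 156 lie in exons of protein-coding genes.

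Divided by the length of all annotated exons, wild-type levels were highest for Ubb, at 731 ± 36.0 CPM per kb, followed by Klhl10 (198 ± 8.17 CPM per kb), Rnf133 (158 ± 12.3 CPM per kb), Ube2j1 (112 ± 2.57 CPM per kb), Cul3 (70.2 ± 3.34 CPM per kb) and Usp2 (60.3 ± 1.62 CPM per kb). Then came Cul4a (20.6 ± 0.55 CPM per kb), Ube2b (16.5 ± 0.74 CPM per kb), Herc4 (9.42 ± 0.32 CPM per kb) and Rnf8 (0.62 ± 0.035 CPM per kb). No neighbours in this order overlapped in their 4 wild-type values. The order depends on the length used: over the canonical transcript alone Usp2 reached 141 CPM per kb, beside 137 for Ube2j1 and 77.4 for Cul3, and Herc4 reached 36.8, beside 35.4 for Cul4a and 28.3 for Ube2b. The 5 genes that were lower in the mutants were among the 6 with the highest level per exon length, with Cul3 as the other.

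Set against 15 spermatid markers, whose mean was itself lower in the mutants, every fold change moved up by the same amount. The signs on this scale therefore depend on the marker list. When the mean log2 value of the 15 spermatid markers was subtracted from each library, 8 of the 10 genes were called higher, 0 lower and 2 not called, and by limma 78.3% of all tested genes were higher and 1.76% lower. The 2 that were not called were Klhl10, with a log2 difference of 0.10 (SE 0.045, limma FDR 0.058), and Rnf133, with 0.12 (SE 0.068, limma FDR 0.099). Ubb, Ube2j1 and Usp2 were 0.21, 0.21 and 0.22 above the mean of the markers. The markers themselves spread widely around that mean, with 4 called higher and 7 lower on this scale. On deposited CPM the markers ran from -0.11 (Sun5) to -0.68 (Tnp1). All 5 lower genes lay between these values: Klhl10 (-0.35), Rnf133 (-0.32), Ubb (-0.23), Ube2j1 (-0.23) and Usp2 (-0.22). Cul3, Ube2b and Herc4, which were not called on deposited CPM, were 0.39, 0.44 and 0.48 above the marker mean. Cul4a and Rnf8 stood highest, at 0.73 and 0.80. The median over all tested genes on this scale was 0.57, beside 0.31 for the 10 genes. The order of the 10 genes was the same on all 3 scales, which differ by 1 shift per library.

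**Figure D2:**
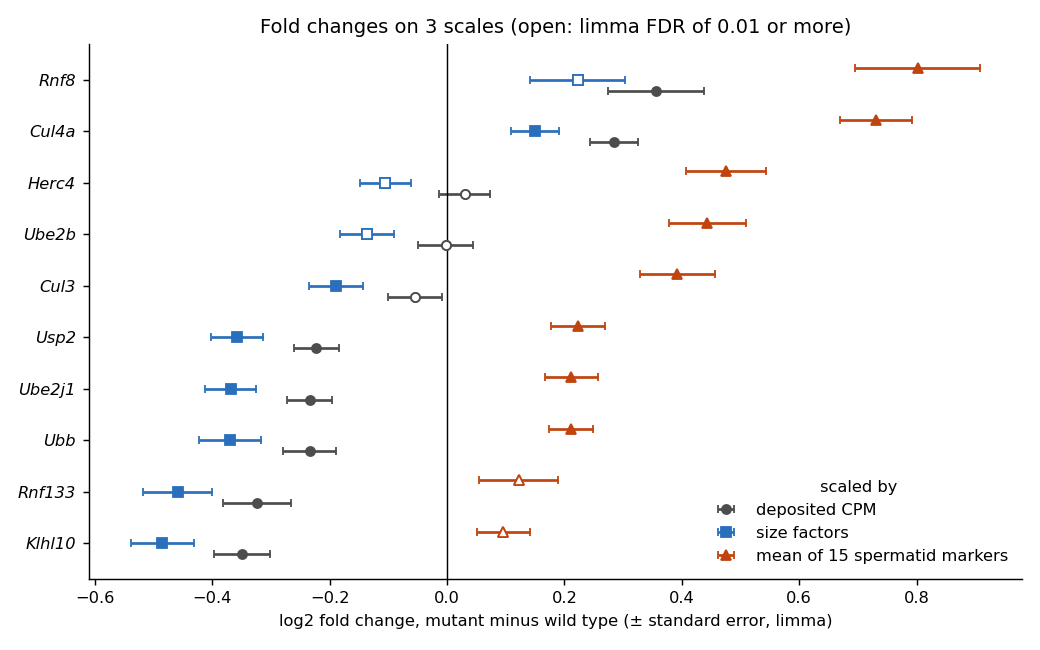
Log2 fold change, mutant minus wild type, with its limma standard error for the 10 genes (rows) on deposited CPM (circles), with size factors (squares) and relative to the mean of 15 spermatid markers (triangles), where open symbols have an FDR of 0.01 or more. On deposited CPM the genes run from Klhl10 at -0.35 to Rnf8 at 0.36, while all 10 lie above 0 on the marker scale.

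Most of the genes were also set against a paralog or partner within the same library, which removes the scaling. Ube2b was 9.89 ± 0.37 times as abundant as Ube2a in the wild type and 7.96 ± 0.77 times in the mutants. Ube2j1 against Ube2j2 went from 11.3 ± 0.15 to 9.18 ± 0.29, and Usp2 against Usp21 from 17.0 ± 0.53 to 13.8 ± 0.18. Two-sided exact permutation tests over the 7 libraries, with 35 arrangements each, gave p = 0.029, the smallest they can give, for these 3 pairs. The same p, from the exact permutation test, was found for Rnf8 against Rnf168, whose ratio was 0.214 ± 0.011 in the wild type and 0.261 ± 0.010 in the mutants, and for Rnf133 against Rnf148, from 3.13 ± 0.15 to 3.79 ± 0.11. In these 5 pairs the groups did not overlap. Single genes were separated, above or below, in 42.8% and 19.5% of all tested genes, and ratios of other gene pairs were not counted. After Benjamini-Hochberg adjustment over the 9 pairs the exact permutation p was 0.051 for each of the 5, and 0 of 9 pairs passed 0.05.

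The ratio of Klhl10 to its partner Cul3 was 1.21, 1.19, 1.03 and 1.25 in the wild type and 1.05, 0.90 and 0.91 in the mutants. Mutant library 1 lay above wild-type library 3, so the groups overlapped (exact permutation p = 0.086, adjusted 0.096). Herc4 against Herc3 went from 23.7 ± 2.00 to 19.8 ± 0.61, with an exact permutation p of 0.057 (adjusted 0.073). Its groups did not overlap, at 21.6 to 26.3 in the wild type and 19.4 to 20.5 in the mutants. The ratio of Cul4a to Cul4b was 1.71 ± 0.091 in the wild type and 1.68 ± 0.053 in the mutants (exact permutation p = 0.60).

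**Figure D3:**
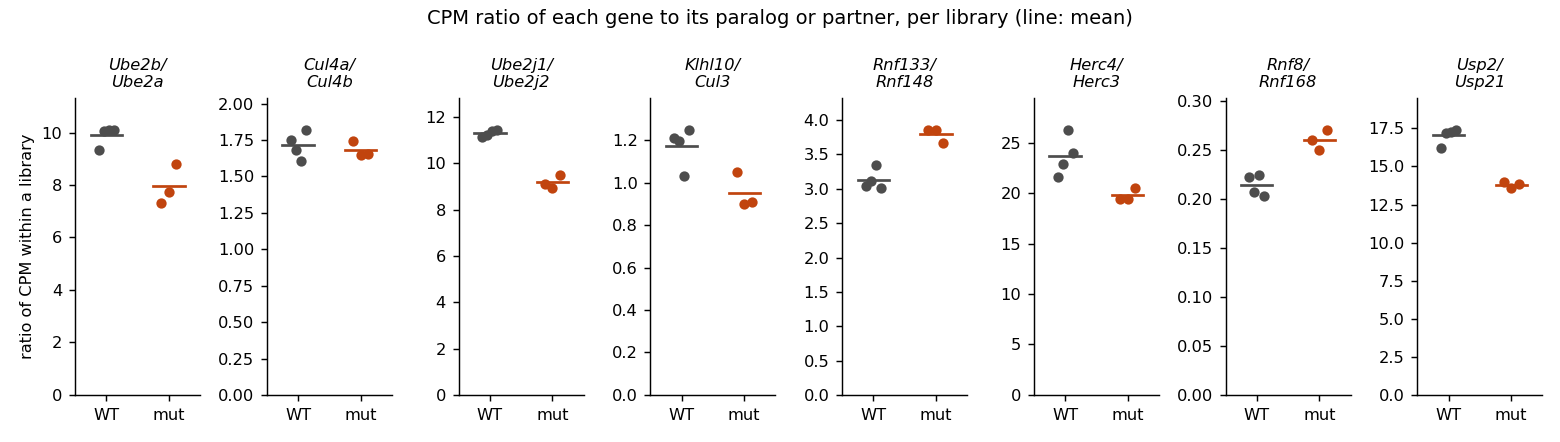
Ratio of CPM within a library (vertical axes, each from 0) for 8 pairs of a gene and its paralog or partner, with 1 point per wild-type (grey) or mutant (orange) library and a line at the mean. The ratios to Ube2a, Ube2j2, Usp21 and Herc3 are lower in all mutant libraries, and those of Rnf133 to Rnf148 and Rnf8 to Rnf168 are higher. Those of Cul4a to Cul4b and Klhl10 to Cul3 overlap.

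Other genes of the ubiquitin system were counted in the same way. Of 267 listed genes without the 10, 243 were tested, and 84 (34.6%) were called higher, 29 (11.9%) lower and 130 not at all, with a median log2 fold change of 0.08. With size factors the split was 55 higher and 74 lower, with a median of -0.06. These shares stand beside 36.3% and 14.2% of all genes on deposited CPM and 27% and 25.1% with size factors.

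Among the enzymes that load and carry ubiquitin, 3 of 6 E1 genes were higher and 0 lower, and of 33 tested E2 genes 12 (36.4%) were higher and 6 lower on deposited CPM, where 36.3% of all genes were higher. With size factors the E2 split turned, to 7 higher and 10 lower. Uba7 and Ube2l6, the E1 and E2 of the interferon-induced ubiquitin-like protein ISG15, rose most, from 1.16 ± 0.18 to 4.86 ± 1.13 CPM and from 1.61 ± 0.22 to 7.65 ± 1.25 CPM, log2 fold changes of 1.96 and 2.17. On deposited CPM, markers of macrophages (6 of 6), Sertoli cells (6 of 6) and Leydig cells (5 of 6) were also called higher. So were markers of spermatogonia (4 of 7, but 1 of 7 with size factors) and endothelium (2 of 4). A link of any of these cells to Uba7 and Ube2l6 was not tested. Uba1, the main E1 of ubiquitin, rose by 0.49 on the log2 scale, and Uba3, which activates the cullin modifier NEDD8, by 0.36. Ube2d1 and Ube2e2 were also higher, with log2 fold changes of 1.20 and 0.81. The lower E2 genes were led by Ube2n, the partner of RNF8 for chains on chromatin, which fell from 212 ± 3.34 to 150 ± 2.18 CPM (log2 fold change -0.50). Ube2k and Cdc34 followed, at -0.31 and -0.28.

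Among the parts of cullin ligases, 5 of 20 tested core genes (25%) were higher and 2 lower, below the 36.3% higher of all genes, and with size factors 5 were higher and 5 lower. The neddylation cofactors Dcun1d3 and Dcun1d2 and the scaffold Cul7 were higher (log2 fold changes 0.64, 0.64 and 0.60), whereas Dcun1d1 and the adaptor Eloc were lower (-0.28 and -0.24). Of 37 other BTB adaptors, the gene class of Klhl10, 15 (40.5%) were higher and 1 lower, and with size factors 12 were higher and 9 lower. Klhl14, Klhl29 and Klhl2 rose most (2.27, 2.01 and 1.09), and each was below 6 CPM in every wild-type library. Klhl8 was the lower 1 on deposited CPM, at 42.4 to 45.6 CPM in the wild type and 25.8, 41.1 and 25.1 CPM in the mutants (-0.55, limma FDR 0.0031). Of the 19 genes listed with RNF8 for chromatin, 6 were higher, among them the deubiquitinases Usp22 and Usp3 and the ligase Rnf169 (0.85, 0.51 and 0.44), and 2 were lower, Ube2n and the H2B ligase Rnf40 (-0.20). The 6 are 31.6% of that list, and with size factors the split turned, to 5 higher and 6 lower.

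Of 26 genes of ubiquitination at the endoplasmic reticulum, where Ube2j1 and Rnf133 act, 12 (46.2%) were higher and 5 lower, and with size factors 8 were higher and 6 lower. Os9, Edem3 and Derl3, which recognise or move misfolded proteins, were higher (log2 fold changes 0.82, 0.70 and 0.53). The testis ligases Rnf148 and Znrf4 and the stress-induced Herpud1 were lower (-0.60, -0.41 and -0.40), and Znrf4 went from 585 ± 19.6 to 441 ± 38.3 CPM. The 30 other ligases listed for germ cells were, among the other ubiquitin lists, the only 1 with a median below 0 on deposited CPM, at -0.15. Of these 30, 3 (10%) were higher and 10 (33.3%) lower, beside 36.3% and 14.2% of all genes. With size factors 2 (6.67%) were higher and 18 (60%) lower, beside 27% and 25.1%. The E2, cullin core, RNF8, endoplasmic reticulum, HERC and deubiquitinase lists then also had medians below 0, and that of the germ cell ligases was -0.29. Ubr2, Huwe1 and Itch were the higher 3 (0.64, 0.45 and 0.29), and Rnf148, Znrf4 and Marchf11 (-0.36) led the lower ones. The call of Itch was lost with size factors (limma FDR 0.011).

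Among 71 tested deubiquitinases, the class of Usp2, 27 (38%) were higher and 5 (7.04%) lower, beside 36.3% and 14.2% of all genes. With size factors 13 (18.3%) were higher and 22 (31%) lower, beside 27% and 25.1% of all genes. Brcc3, Usp33 and Usp22 rose most (0.99, 0.87 and 0.85). Usp44, Otub2 and Yod1 were lower (-0.50, -0.37 and -0.28), with Usp44 at 239 ± 6.54 CPM in the wild type and 169 ± 5.91 CPM in the mutants. All 5 ubiquilins, shuttle proteins between ubiquitinated proteins and the proteasome, were called. The widely used Ubqln2, Ubqln4 and Ubqln1 were higher (0.74, 0.41 and 0.19), although Ubqln1 was not called with size factors (0.05, limma FDR 0.40), and 2 were lower, among them the testis member Ubqlnl (-0.59).

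**Figure D4:**
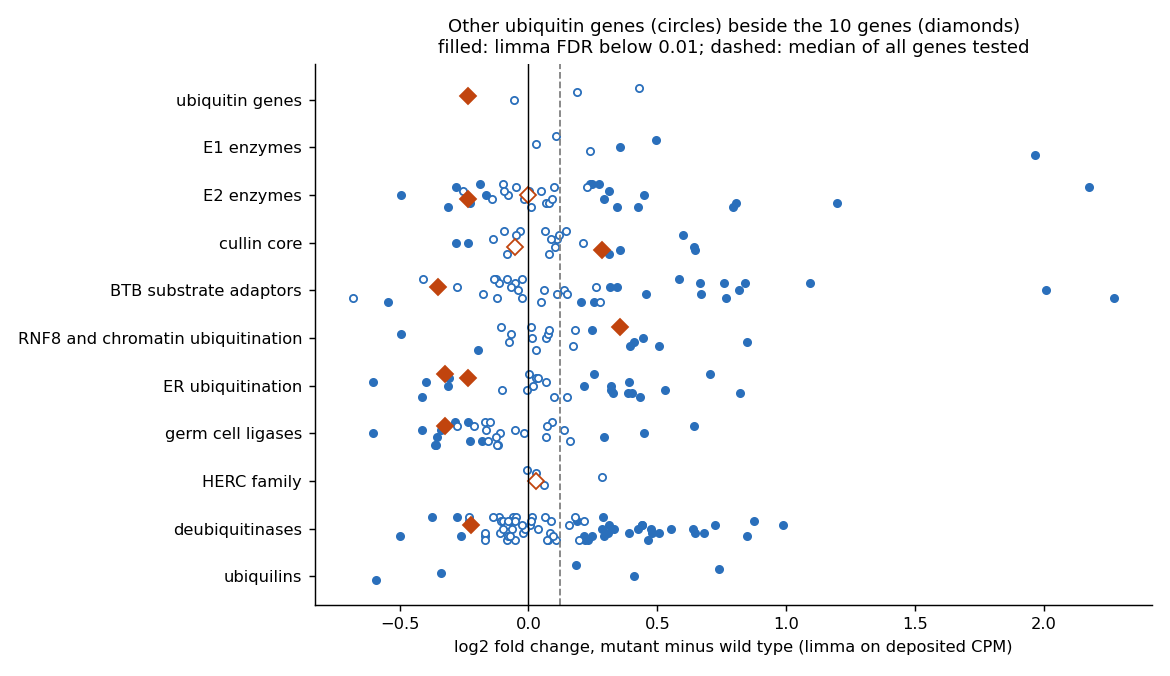
Log2 fold change on deposited CPM (horizontal axis) of the tested genes of 11 ubiquitin lists (rows), with circles for other genes and diamonds for the 10 genes, filled where the limma FDR is below 0.01. The dashed line is the median of all tested genes, 0.12, and most germ cell ligases lie to its left.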

How the data were processed

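RNA was extracted from the testes with TRIzol and libraries were made with the TruSeq RNA kit. The authors trimmed reads with Trimmomatic, aligned them to GRCm39 with Subread, counted them per gene with featureCounts, removed genes that did not reach 75 reads in 2 samples of either genotype, and made their calls with edgeR and DESeq2. The annotation release and the strand setting of the counting are not given in the sources used here. The authors deposited CPM, with no between-sample factor found in them. All values (100%) of a library were whole multiples of its step (tolerance 0.01), which gave the reads per library. Counting error is only part of the spread between mice.

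limma 3.58.1 (R 4.3.3; lmFit and eBayes with a trend) was run on log2(CPM + 0.1) for genes that reached 2.2 CPM in 2 samples of either genotype. Log2 fold changes on this scale understate changes of low genes. Adjusted p-values (FDR) are Benjamini-Hochberg values over all tested genes, called below 0.01. The fit was tested on simulated data. Ratios within a library were compared with two-sided exact permutation tests. Gene names, positions and lengths came from GENCODE M39, in which 17045 genes were found, and promoter windows from RefSeq, where all 10 genes matched, with 12 windows.

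The 10 genes, the lists and the pairs were chosen with earlier results of these data known, so their counts are descriptions. Genes named beside the 10 are their paralogs and partners, Iqch, up to 3 called genes in each direction with the largest change and no overlap in each list, and the 3 genes most like the gene of largest change. The other HERC genes and overlapping genes were named after their values were seen. Some genes and 1 of the 9 pairs adjusted together are not reported here. Alternatives were pseudocounts of 1 and 0.01, no minimum or 5 CPM, size factors, a replicate block and each library left out. Python 3.11.15, NumPy 2.4.6, pandas 2.3.3, statsmodels 0.14.6 and matplotlib 3.10.9 were used for the rest.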

Additional observations from a re-analysis of the deposited data

Results flagged for a closer look

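In 5 of 60 gene and group combinations tested, 1 of the 4 wild-type libraries stood apart from the other 3 by Dixon's test, which chance alone gives in about 1 in 20. Klhl10 was 428 CPM in wild-type library 3, beside 464 to 467 CPM in the others, and Cul4a was 138 CPM in wild-type library 4, beside 129.8 to 131 CPM. Ube2a was 11.7 CPM in library 3 (others 12.6 to 12.7 CPM) and Usp3 was 24.3 CPM in library 3 (others 26.2 to 26.5 CPM). Klhl2 was 4.70 CPM in wild-type library 1, beside 5.18 to 5.23 CPM. In each of these 5 genes the groups still did not overlap.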

How the results depend on the processing

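Of the 10 genes, 1 was called higher with size factors (main analysis 2), since Rnf8 was not called (0.22), and Cul3 became called lower (-0.19). With size factors Herc4 turned to -0.10 and Ube2b moved to -0.14, and neither was called. Under that scaling 4294 of all genes were called lower in place of 2428. The other ubiquitin genes then split into 55 higher and 74 lower. Ube2b, not called in any of these, ranged from -0.022 to 0.023 as libraries were left out, with the sign turned without mutant library 1 (0.023), wild-type library 2 (0.016) or wild-type library 4 (0.017). With each library left out in turn, 1 to 2 of the 10 genes were called higher, 5 lower each time, and 5306 to 6111 of all genes higher and 1932 to 2392 lower. The 1 came from leaving out mutant library 4, where Rnf8 was not called (0.33). With a replicate block, 2 of the 10 genes were higher and 5 lower, and 5583 of all genes were higher and 2139 lower, with no change of call among the 10. Libraries with the same number did not deviate together (r of 0.026, 0.0094 and -0.098), so the numbers were not taken as pairs. Other pseudocounts and minimums changed no call among the 10 genes. Ratios with a library left out were given values only, and count-based tests planned with edgeR and DESeq2 were not run: the step was used for depth only, and reads per gene were not taken as counts.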
